A study of Mus musculus with 2 samples.

Results

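A family of 10 genes was followed through the leukocytes of fatty, inflamed mouse liver: 6 chains of the common-gamma cytokine receptors (Il2ra, Il2rb, Il2rg, Il7r, Il21r and Il4ra) and 4 inhibitors of the SOCS family (Socs1, Socs2, Socs3 and Cish). They were chosen by name, not by their values, from the 32285 genes of the count tables, and all 10 were detected in both libraries. Male C57Bl6/J mice had received a lethal dose of radiation and then marrow of either genotype, Trem2-/- or littermate Trem2+/+, with 6 weeks to recover before they were fed a methionine/choline-deficient (MCD) diet, a model of non-alcoholic steatohepatitis, for 4 weeks. The diet and the irradiation were shared by both groups, and the groups, as labelled, differed in the genotype of the marrow, so cells that survive irradiation in the host carry the recipient's own Trem2. Live CD45+ liver cells, negative for the dead-cell dye 7AAD, from 4 mice were pooled into 1 library per group and profiled by 5' droplet single-cell RNA sequencing. With 1 library per group there is no replicate, no test between the groups was possible, and each interval below covers counting error only.

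The common gamma chain, encoded by Il2rg, is shared by the receptors for IL-2, IL-4, IL-7, IL-9, IL-15 and IL-21, and each receptor adds chains of its own that bind the cytokine. Il2ra encodes CD25, the high-affinity IL-2 chain, Il2rb the chain shared by IL-2 and IL-15, Il7r the IL-7 chain (also used for TSLP), Il21r the IL-21 chain and Il4ra the IL-4 and IL-13 chain. Bound receptors act through the kinases JAK1 and JAK3 and through STAT proteins, chiefly STAT5 for IL-2, IL-7 and IL-15, STAT6 for IL-4 and STAT3 for IL-21. SOCS proteins are made in response to these signals and damp them: Cish and Socs2 are classical STAT5 targets, Socs1 restrains interferon and common-gamma signals, and Socs3 restrains IL-6-family and G-CSF signals through STAT3.

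Of the gene starts, 3 carried the palindromic STAT motif TTCNNNGAA, and these are shown because Cish held it more than once. RefSeq promoter windows (GRCm38.p6, 250 bases before to 50 after the start) were available for 8 of the 10 members, not for Il2rb or Socs2. The motif reads the same on both strands. Each line gives 30 bases, 5′ to 3′ on the strand of the gene, with the motif matches in capitals.

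Cish: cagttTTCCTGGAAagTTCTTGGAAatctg

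Socs3: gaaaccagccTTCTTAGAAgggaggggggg

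Il7r: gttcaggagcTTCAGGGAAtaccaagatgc

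The Cish stretch lies at chr9:107296654-107296683 on the forward strand, within the first exon and 5′ UTR of a longer GENCODE transcript of Cish. The Socs3 stretch lies at chr11:117969501-117969530 and the Il7r stretch at chr15:9529999-9530028, both on the reverse strand, upstream of the RefSeq start and in an intron of a longer GENCODE processed transcript of the same gene. Cish held 2 matches, at positions 0 and 11 from its start, Socs3 held 1 at -154 and Il7r 1 at -142. Among 32851 promoter windows of the same length, 8.30% held at least 1 match and 0.457% held 2 or more. The wider spacing TTCNNNNGAA, present in 6.95% of all windows, was in none of the 8. A match describes letters and not a bound site. Elsewhere in the family, Il4ra (chr7:125552120-125579474) and Il21r (chr7:125603429-125633570) are neighbours in mm10, 23954 bases apart.

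The Trem2-/- library held 6362 barcodes and 25288032 UMIs (unique molecular identifiers, each standing for 1 captured RNA molecule), and the Trem2+/+ library held 7012 barcodes and 27238586 UMIs. Filtering kept 5974 and 6596 cells with medians of 2931.5 and 2492 UMIs. Trem2 itself stood at 6.19 CPM (UMIs of a gene per 1000000 UMIs of its group of cells) in the Trem2-/- library and 204 CPM in the Trem2+/+ library, and its remaining level was highest in Kupffer-like (37.5 against 323 CPM) and macrophage-like cells (35.7 against 611 CPM). The 2 libraries shared 53 kept cell barcodes. Clusters were rebuilt here and named "-like" from marker genes that include none of the 10 members, and the 10 members were kept out of the genes used for clustering. Of 32 groups, 13 named classes had at least 50 cells in each library and were compared between the libraries. Doublet calling marked 0.0629% and 0.0285% of barcodes, too few to be working. Those 4 and 2 barcodes were removed, and other doublets stay in the data.

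The receptor chains fell into lymphoid and broad patterns, shown in the heat map of levels. Il2rg, the shared chain, was the broadest: it stood at 891 CPM in Trem2-/- and 792 CPM in Trem2+/+ NK-like cells, 839 and 835 CPM in ILC1-like cells (tissue-resident innate lymphocytes), 832 and 750 CPM in CD4 T-like cells and 522 and 502 CPM in B-like cells. Among the 13 compared classes its lowest levels were in endothelial-like cells, at 49.4 and 56.3 CPM, and cDC1-like cells, at 51.7 and 49.7 CPM. The NK-like, ILC1-like, Treg-like and cluster L12 (led by Il17a) intervals overlapped, so no order can be read among the highest groups. Among dendritic cells, cDC2-like cells held more Il2rg than cDC1-like cells in both libraries, by 2.42 on the log2 scale (95% interval 2.10 to 2.75) in Trem2-/- and 2.44 (2.11 to 2.78) in Trem2+/+.

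**Figure D1:**
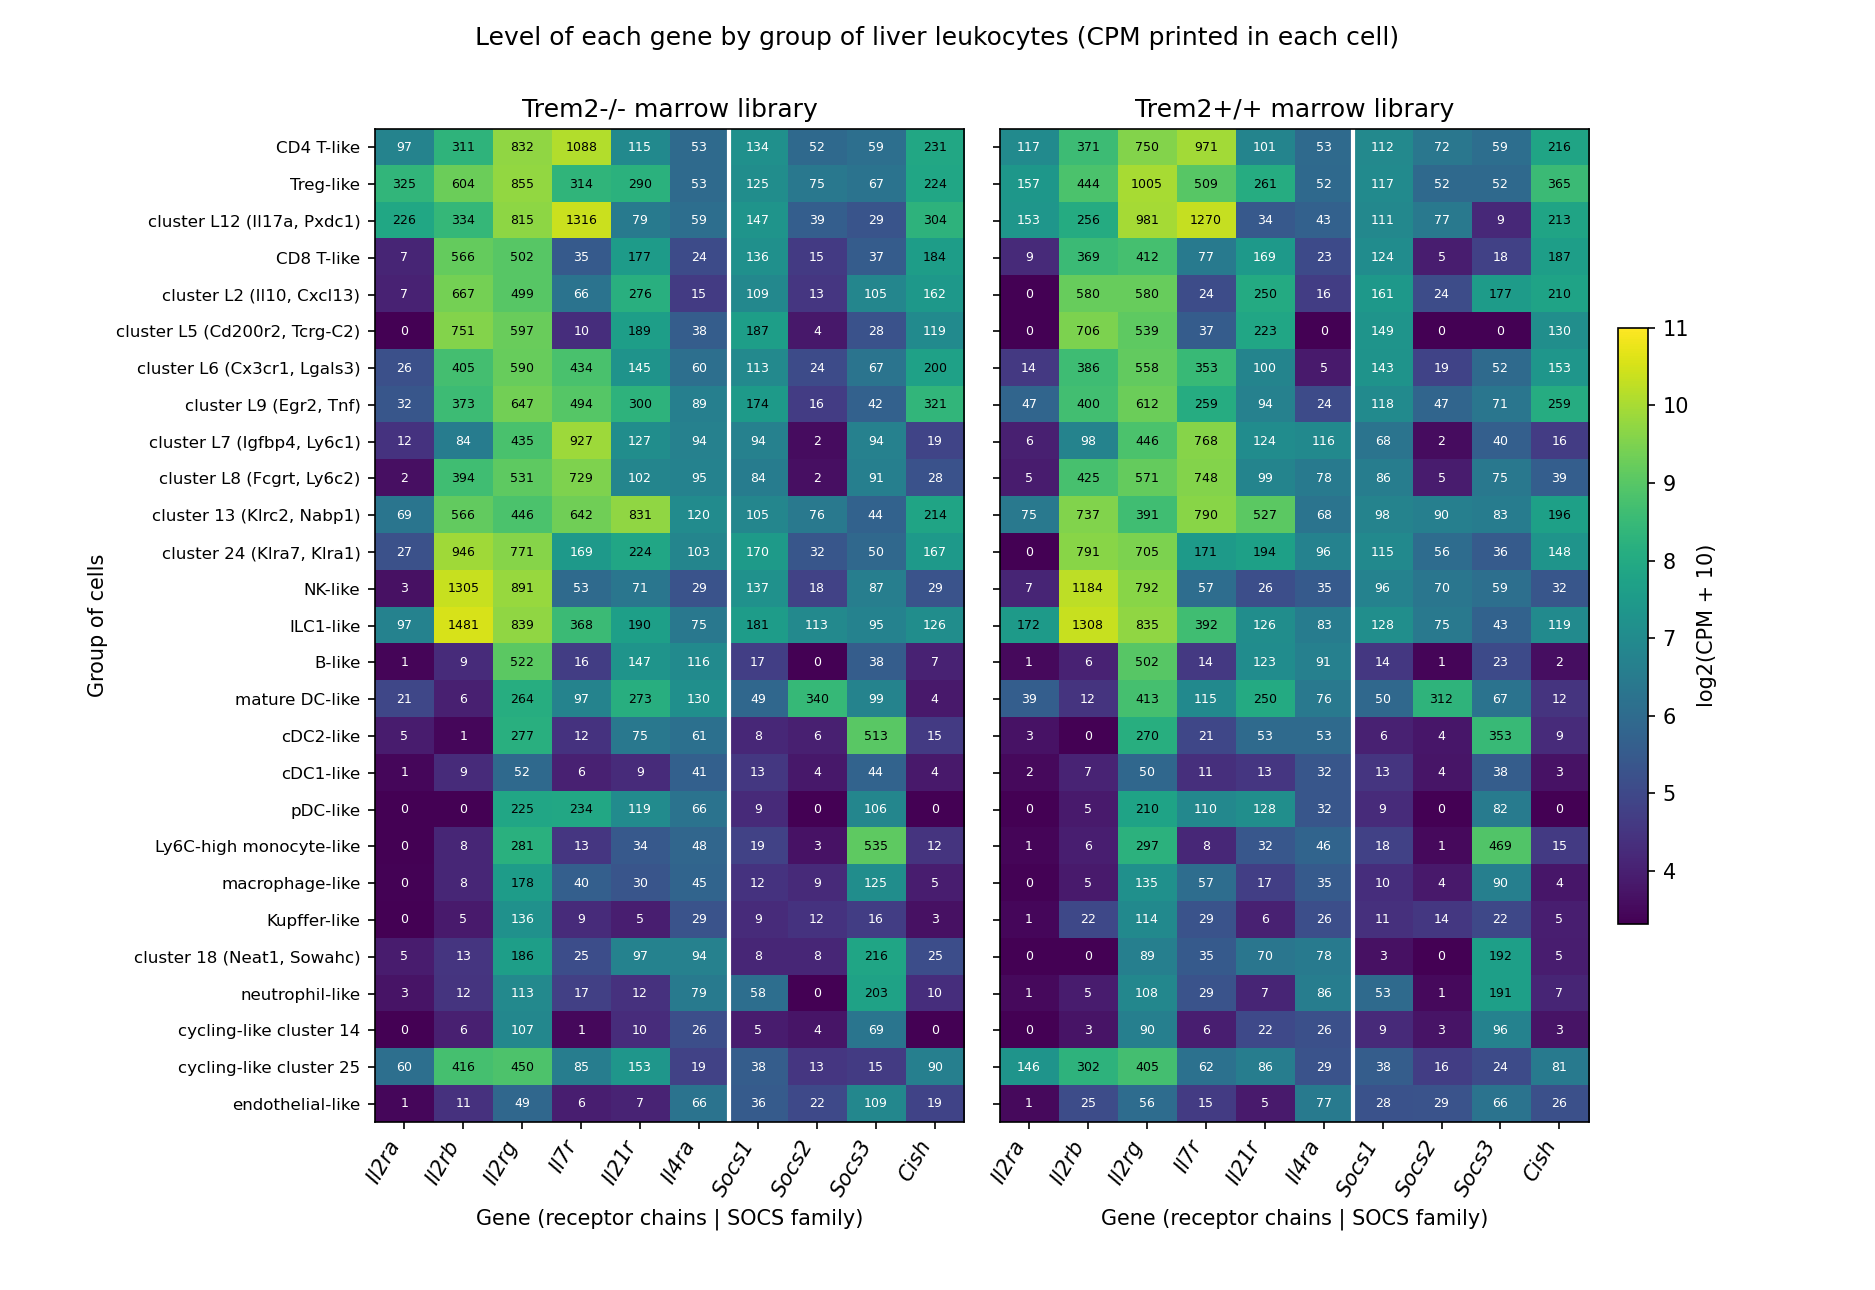
Level of each member (columns) in 27 groups of cells (rows) in the Trem2-/- (left) and Trem2+/+ (right) libraries; colour is log2(CPM + 10) and the printed value is CPM. Il2rb is brightest in NK-like and ILC1-like cells, Il7r in CD4 T-like cells and cluster L12, Socs2 in mature DC-like cells and Socs3 in monocyte-like and cDC2-like cells.

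Il2rb was highest in ILC1-like cells, at 1481 CPM in Trem2-/- and 1308 CPM in Trem2+/+, and next in NK-like cells, at 1305 and 1185 CPM. The intervals of these classes overlapped in both libraries and lay above those of every other group. After thinning each cell to 1000 UMIs, so that depth was equal, 75.7% and 63.7% of ILC1-like cells held an Il2rb UMI (97.1% and 97.4% unthinned), against 0.469% and 0% of B-like cells (1.39% and 1.02% unthinned). Median depths were 4833 and 4096 UMIs in ILC1-like cells and 1985 and 1733 UMIs in B-like cells.

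Il2ra completes the high-affinity IL-2 receptor and was found at a high level in fewer groups. Its highest level in Trem2-/- was in Treg-like cells, which had 325 CPM (interval 270 to 388, 96 cells) in Trem2-/- and 157 CPM (80.9 to 274, 23 cells) in Trem2+/+. ILC1-like cells, first in Trem2+/+, had 96.9 and 172 CPM and CD4 T-like cells 97.1 and 117 CPM, whereas NK-like cells had 2.64 and 7.42 CPM from 1 and 4 UMIs. In the Trem2+/+ library the Treg-like, cluster L12 and ILC1-like intervals overlapped. Choosing regulatory cells directly, as cells with a Foxp3 and a Cd3 UMI, gave 275 CPM over 61 cells and 171 CPM over 28 cells. Of these cells, 46 in Trem2-/- and 9 in Trem2+/+ were also Treg-like. Between ILC1-like and NK-like cells Il2rb differed by 0.18 (0.02 to 0.35) in Trem2-/- and 0.14 (-0.01 to 0.30) in Trem2+/+ on the log2 scale, whereas Il2ra differed by 5.20 (2.66 to 10.53) and 4.53 (3.13 to 6.44). B-like cells, which gave 1 and 2 UMIs of Il2ra, mark the background.

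Il7r separated T-cell states. It stood at 1088 and 971 CPM in CD4 T-like cells and 1316 and 1270 CPM in the few cells (28 and 34) of cluster L12, but at 34.9 and 77.3 CPM in CD8 T-like cells, whose leading genes include Gzmk and Pdcd1. Cluster L8, led by Fcgrt and Ly6c2, had 729 and 748 CPM, and cluster L7, led by Igfbp4 and Ccr7, had 927 and 768 CPM. Both held Cd8b1, at 877 and 893 CPM in L8 and 522 and 642 CPM in L7, against 1228 and 1144 CPM in CD8 T-like cells. Cluster L6 (Cd8b1 at 1255 and 949 CPM) had Il7r at 434 and 353 CPM. Cluster L5 (Cd8b1 at 1036 and 1040 CPM) had Il7r at 10.0 and 37.2 CPM. Low Il7r was thus not shared by all clusters with Cd8b1. ILC1-like cells held 368 and 392 CPM against 52.7 and 57.5 CPM in NK-like cells, a log2 difference of 2.80 (2.14 to 3.54) and 2.77 (2.22 to 3.36). Thinned shares were 58.0% and 55.0% in CD4 T-like cells and 0% and 1.40% in cDC1-like cells (88.0%, 71.9%, 2.08% and 4.91% unthinned). The cDC1-like cells were the deeper class, with medians of 11963.5 and 9447.5 UMIs against 3718 and 3219.

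A lower level of Il7r lay in macrophage-like cells, at 40.1 and 57.1 CPM, and it sat in 1 of their 2 clusters. Cluster 19, led by Gpnmb, had 54.5 CPM in Trem2-/- and 79.5 CPM in Trem2+/+, while cluster 22, led by Pf4 and C1q genes, had 20.9 and 9.29 CPM. The log2 difference between the clusters was 1.38 (0.69 to 2.14) and 3.10 (2.48 to 3.79). The 8 T-cell markers summed to 56.8 and 16.3 CPM in macrophage-like cells, all 8 detected, against 4903 and 4516 CPM in CD4 T-like cells. Il7r of macrophage-like cells was thus below the summed T markers in Trem2-/- and above them in Trem2+/+, and the part of T-cell RNA in it was not tested. Mature DC-like cells had 97.4 and 115 CPM, above both cDC2-like (12 and 20.9 CPM) and cDC1-like cells (6.29 and 10.7 CPM).

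Il21r was highest in cluster 13, a low-depth lymphoid cluster with medians of 779 and 711 UMIs, at 831 and 527 CPM. Among named classes mature DC-like cells had 273 and 250 CPM and Treg-like cells 290 and 261 CPM, with overlapping intervals. Cells chosen directly by a Foxp3 and a Cd3 UMI had only 144 CPM (109 to 187) and 125 CPM (75.1 to 195). The Il21r level of regulatory cells thus depended on how they were chosen. CD8 T-like cells had 177 and 169 CPM, ILC1-like cells 190 and 126 CPM and B-like cells 147 and 123 CPM, and the unnamed clusters L2, 24 and L5 lay at 189 to 276 CPM. Dendritic cells were sharply graded: mature DC-like cells exceeded cDC1-like cells by 4.85 (4.20 to 5.58) and 4.24 (3.64 to 4.90) on the log2 scale, with cDC2-like cells between them at 74.7 and 53.3 CPM. Thinned shares were 26.4% and 22.3% in mature DC-like cells and 1.27% and 0.382% in endothelial-like cells, which held 76.1%, 56.9%, 1.93% and 1.43% unthinned.

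Il4ra was the flattest of the chains. Mature DC-like cells had 130 and 75.6 CPM, B-like cells 116 and 90.8 CPM, cluster L7 93.5 and 116 CPM, and CD8 T-like cells, the lowest of the 13 compared classes in both libraries, 23.9 and 23.4 CPM. The 4 highest groups had overlapping intervals, so their order is not fixed.

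The SOCS genes differed in the classes where they were highest. Among the 13 compared classes Socs1 was highest in the T, NK and ILC1 classes. It stood at 181 and 128 CPM in ILC1-like and 137 and 96.4 CPM in NK-like cells. CD8 T-like cells had 136 and 124 CPM and CD4 T-like cells 134 and 112 CPM. These intervals overlapped one another in each library. B-like cells, also lymphoid, had only 17.0 and 13.7 CPM. Among myeloid cells neutrophil-like cells had 58.3 and 52.9 CPM and mature DC-like cells 49.5 and 49.9 CPM, with overlapping intervals, and cDC2-like cells had 7.97 and 6.18 CPM.

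Cish, the STAT5-induced inhibitor with the paired motif, was high in the named T-cell classes: 231 and 216 CPM in CD4 T-like, 184 and 187 CPM in CD8 T-like and 224 and 365 CPM in Treg-like cells. Cells chosen by a Foxp3 and a Cd3 UMI had 195 and 217 CPM. ILC1-like cells had 126 and 119 CPM but NK-like cells 29.0 and 31.5 CPM, a log2 difference of 2.12 (1.19 to 3.19) and 1.91 (1.12 to 2.78). Not all T cells were high: clusters L7 and L8, with Cd3e at 618 to 733 CPM and high Il7r, were low for Cish, at 16.0 to 39.1 CPM. Thinned shares were 20.4% and 16.5% in CD4 T-like cells (51.7% and 45.6% unthinned) and 0.626% and 0.298% in B-like cells (0.831% and 0.383% unthinned).

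Socs2 was concentrated in 1 small class. Mature DC-like cells, only 92 and 102 cells, held 340 CPM (297 to 388) and 312 CPM (271 to 357), which was 34.9% and 38.1% of all Socs2 UMIs in their libraries. ILC1-like cells had 113 and 75.4 CPM, and in the Trem2+/+ library their interval overlapped those of cluster L12, CD4 T-like and NK-like cells. The other dendritic cells were near the floor, with 5.98 and 3.86 CPM in cDC2-like and 4.04 and 3.55 CPM in cDC1-like cells. Cluster 23, an unnamed group of 12 and 19 cells led by Clu and the keratin genes Krt8 and Krt18, held 333 and 137 CPM. Thinned shares were 27.6% and 28.7% in mature DC-like cells (70.7% and 56.9% unthinned) and 0% in cDC1-like cells of both libraries (1.04% and 2.23% unthinned).

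Socs3 was myeloid. Ly6C-high monocyte-like cells held 535 and 469 CPM, which was 38.5% and 38.6% of all Socs3 UMIs, and cDC2-like cells 513 and 353 CPM. Neutrophil-like cells had 203 and 191 CPM, macrophage-like cells 125 and 89.6 CPM, cDC1-like cells 44.0 and 38.0 CPM and Kupffer-like cells 16.5 and 22 CPM. Outside the myeloid classes, endothelial-like cells had 109 and 66.4 CPM and NK-like cells 87.0 and 59.3 CPM, above the cDC1-like and Kupffer-like levels. Monocyte-like and cDC2-like intervals overlapped in the Trem2-/- library and not in the Trem2+/+ library. Thinned shares were 34.9% and 30.7% in monocyte-like cells and 1.74% and 0.760% in Kupffer-like cells (69.6%, 61.8%, 5.03% and 3.99% unthinned). Within macrophage-like cells Socs3 followed the same split as Il7r: cluster 19 had 200 and 119 CPM and cluster 22 had 24.7 and 27.4 CPM, a log2 difference of 3.02 (2.44 to 3.66) and 2.11 (1.74 to 2.51).

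**Figure D2:**
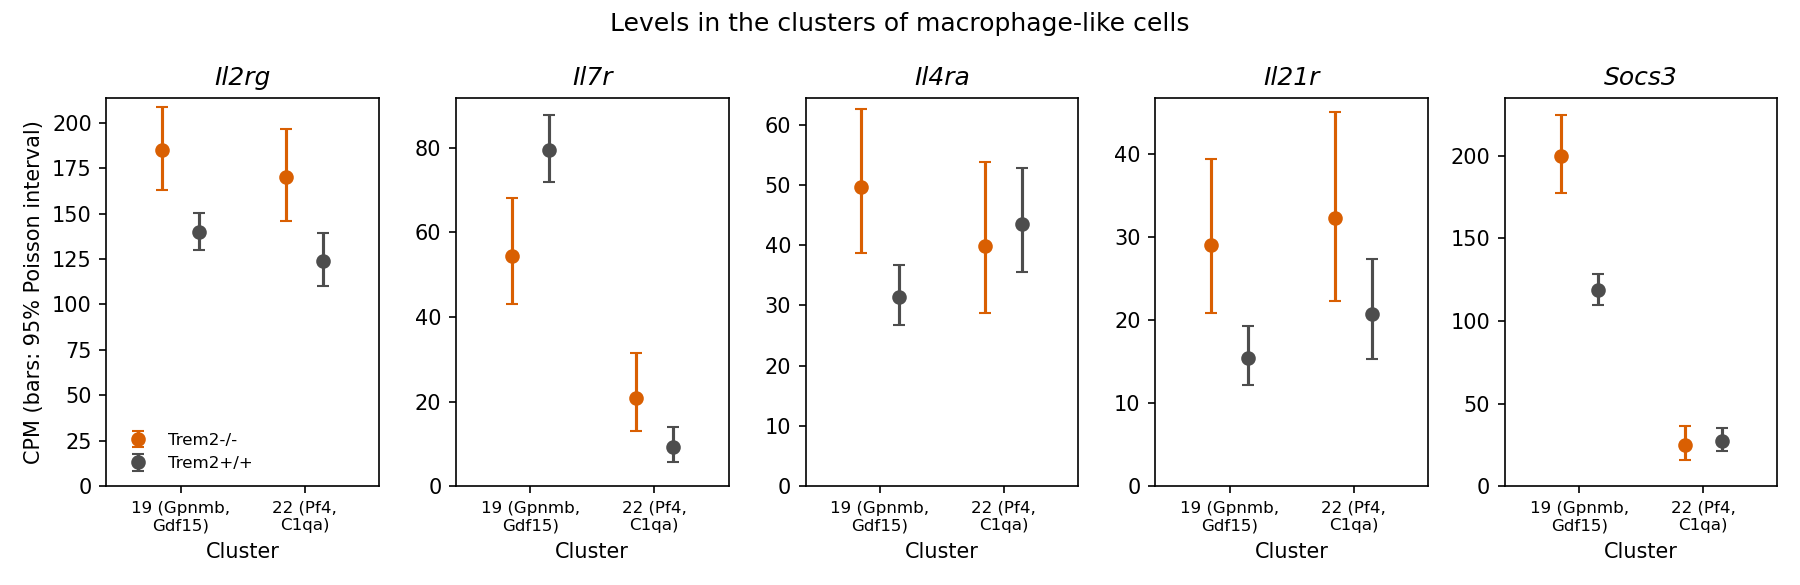
CPM of 5 members in macrophage-like clusters 19 and 22 (x axis) in each library; points are levels and bars 95% Poisson intervals. Il7r and Socs3 are higher in cluster 19 in both libraries, while Il2rg differs little between the clusters.

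Genes with the most similar profiles were ranked over 20 groups in 2 libraries, 40 profiles that share libraries and cell types, among 5944 genes. Il2rb was most like Ctsw, a cathepsin of cytotoxic cells (Pearson r = 0.98 across profiles), Il7r most like Tcf7, a transcription factor of T cells (0.91), and Socs1 most like Thy1 (0.92). Cish was most like Cxcr6, a chemokine receptor of resident lymphocytes (0.94), Il2ra most like Rora (0.88) and Il21r most like Cblb (0.90). Socs3 was most like Nfkbia (0.77) and Nfkbiz (0.77), both inhibitors in the NF-κB pathway, and Socs2 most like Serpinb9 (0.83). Il2rg was most like B4galnt1 (0.90), and Il4ra had the weakest best match, Zfp592 (0.64).

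Between the libraries most measured levels within a class lay within 1.5-fold of each other. A pair of a member and a class was measured where the mean level was at least 20 CPM with at least 20 UMIs, which 78 of 130 pairs met. Of these, 10 were at least 1.5-fold higher in Trem2-/- (the background over all genes and the same classes was 5.79%) and 6 at least 1.5-fold lower (background 5.02%). These calls are folds between 2 libraries and were not tested.

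Socs3 gave 4 of the 10 higher pairs. For endothelial-like cells the labels name the marrow given. The part of host cells in this class, which carry the recipient's own Trem2, was not tested. Socs3 in these cells stood at 109 CPM with Trem2-/- marrow and 66.4 CPM with Trem2+/+ marrow, 0.71 (0.42 to 1) on the log2 scale. Of all genes in the class, 1.36% were at least 1.5-fold higher. The difference lay in endothelial cluster 0, at 115 and 64.3 CPM, and not in cluster 20, at 77.3 and 71.7 CPM. In the same class 5 of 17 dissociation-stress genes were higher and none lower, with a median log2 ratio of 0.33 against 0.03 over all genes; their part in the Socs3 ratio was not tested. In ILC1-like cells Socs3 stood at 95.1 and 43.4 CPM, 1.13 (0.40 to 1.91) on the log2 scale. There 9.18% of genes were at least 1.5-fold higher and the stress genes had a median of 0.05. B-like cells had 37.9 and 23.1 CPM, 0.72 (0.07 to 1.39; background 3.88%), and CD8 T-like cells 36.8 and 18 CPM, 1.03 with an interval from -0.13 to 2.29 that includes 0 (background 14.0%). Stress genes were higher for 3 of 16 in B-like and 3 of 14 in CD8 T-like cells and lower for none, with medians of 0.14 and 0.26, and their part was not tested. In monocyte-like cells, where Socs3 is highest, the ratio was 0.19 and no member was called (backgrounds 1.30% higher and 1.41% lower). In macrophage-like cells the Socs3 ratio was 0.48 (0.28 to 0.68), under 1.5-fold. Their cluster 19 had 0.75 (0.54 to 0.96), past 1.5-fold, and their cluster 22 had -0.15 (-0.87 to 0.52). The stress genes had a median of 0.23 in macrophage-like cells, and their part was not tested.

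**Figure D3:**
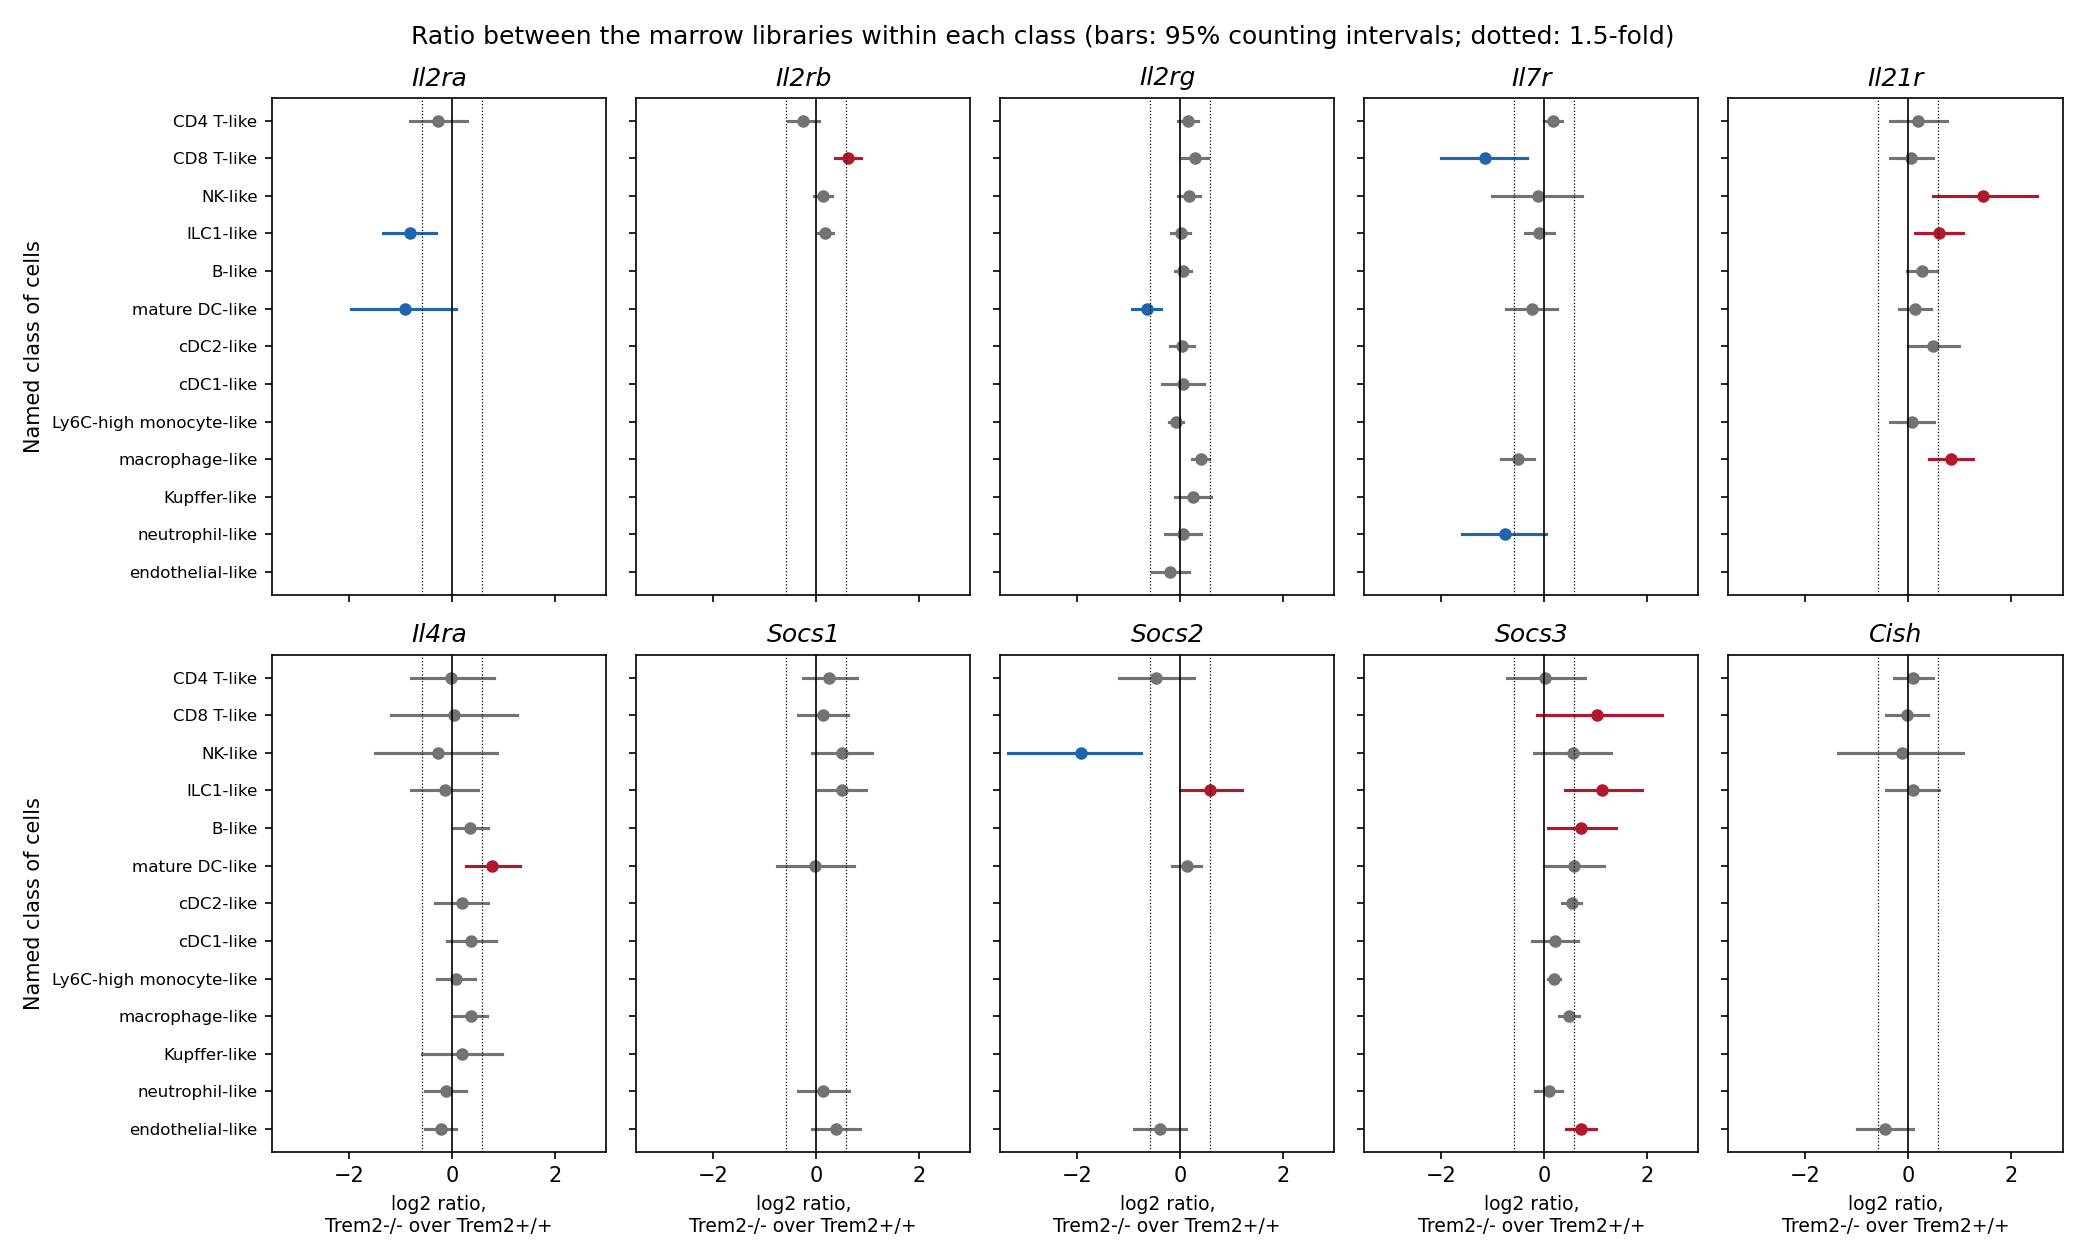
Log2 ratio of each member, Trem2-/- over Trem2+/+, in the named classes where it was measured; bars are 95% counting intervals, dotted lines mark 1.5-fold, red points are at least 1.5-fold higher and blue at least 1.5-fold lower. Socs3 points lie at or right of 0 in every class drawn, and the Cish points lie close to 0 in the T, NK and ILC1 classes.

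Il21r was higher in 3 classes. NK-like cells had 71.2 and 26 CPM, a log2 ratio of 1.46 (0.47 to 2.50; background 11.2%), from 27 and 14 UMIs. ILC1-like cells had 190 and 126 CPM, 0.59 (0.13 to 1.06), and macrophage-like cells 30.4 and 17.1 CPM, 0.83 (0.40 to 1.25; background 1.75%). In macrophage-like cells both clusters had the same direction, at 29.0 and 15.4 CPM in cluster 19 and 32.3 and 20.7 CPM in cluster 22. The T-cell markers also stood higher in Trem2-/- macrophage-like cells, at 56.8 against 16.3 CPM, and their part in this ratio was not tested.

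Mature DC-like cells differed in their receptor chains. Il4ra stood at 130 and 75.6 CPM, 0.79 (0.27 to 1.32; background 6.27%), whereas Il2rg stood at 264 and 413 CPM, -0.65 (-0.93 to -0.37), and Il2ra at 21 and 39.3 CPM, -0.91 (-1.96 to 0.08). Of all genes in the class, 12.4% were at least 1.5-fold lower. The Il2ra ratio was -0.15 as a mean over cells. The T-cell markers summed to 18 CPM in Trem2-/- and 113 CPM in Trem2+/+ mature DC-like cells, with all 8 detected in each, and their part in the lower Il2rg and Il2ra was not tested. Socs2, the gene that marks this class, gave a log2 ratio of 0.13 (-0.15 to 0.41).

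In lymphocytes, Il2rb of CD8 T-like cells stood at 566 and 369 CPM, 0.62 (0.36 to 0.88; background 14.0% higher), and Il7r of the same cells at 34.9 and 77.3 CPM, -1.15 (-2.01 to -0.34; background 6.07% lower). The Il7r value did not hold when cells were clustered at a finer resolution, where it was 0.14. Clusters L6, L7 and L8, which also held Cd8b1, had no such differences. Their Il2rb ratios were 0.07, -0.23 and -0.11, and their Il7r ratios 0.30, 0.27 and -0.04. Il2ra of ILC1-like cells stood at 96.9 and 172 CPM, -0.82 (-1.34 to -0.32; background 7.73% lower). In the innate lymphocytes Socs2 stood at 18.5 and 70.4 CPM in NK-like cells (-1.93, interval -3.34 to -0.75, from 7 UMIs in 5 cells and 38 UMIs in 18 cells; background 7.65% lower) and 113 and 75.4 CPM in ILC1-like cells (0.59, interval -0.01 to 1.20). The ILC1-like ratio was under 1.5-fold in 4 of 8 other settings, down to 0.12 at a coarser clustering. CD4 T-like cells had all 10 members measured and none called (backgrounds 7.69% higher and 11.1% lower).

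Neutrophil-like cells were lower for Il7r, at 17.3 and 29.4 CPM, -0.77 with an interval from -1.60 to 0.03 (background 5.02%). Their larger cluster was 7 in Trem2-/- and 8 in Trem2+/+. Cluster 8 had 24.2 and 50.7 CPM and cluster 7 had 10.0 and 0 CPM.

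Among the unnamed clusters with at least 50 cells in each library, 5 held a call. Il21r in the low-depth cluster 13, at 831 and 527 CPM, had a log2 ratio of 0.66 (0.27 to 1.07), and Il4ra there stood at 120 and 67.7 CPM, 0.82 with an interval from -0.27 to 2.07 that includes 0 (background 14.3% higher). Socs3 in cluster 13 stood at 43.5 and 82.7 CPM, -0.93 (-2.23 to 0.40; background 12.6% lower), from 12 and 11 UMIs. The shared chain Il2rg stood at 186 and 89.2 CPM in cluster 18, led by Neat1, 1.06 (0.45 to 1.70; background 13.3% higher). In cluster 24, led by Klra7 and Klra1, Socs2 stood at 31.9 and 56.0 CPM, -0.81 (-1.80 to 0.20; background 7.89% lower). Cluster L6, led by Cx3cr1 and Lgals3, had 25 Il4ra UMIs in Trem2-/- and 1 in Trem2+/+, a log2 ratio of 3.66 (1.05 to 9.02; background 16.7% higher). In cluster L7 Socs3 stood at 93.5 and 40.0 CPM, 1.22 (0.44 to 2.06; background 12.2% higher). With backgrounds of 7.89% to 16.7%, differences of at least 1.5-fold were common among all genes of these clusters. These backgrounds do not give the share of genes past the larger folds.

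Summed over all kept cells, 4 of the 9 measured members were at least 1.5-fold higher in Trem2-/- (background 4.62%) and none lower (background 1.86%). Cish stood at 49.1 and 27.9 CPM (0.82), Il21r at 87.2 and 51.2 CPM (0.77), Il2rb at 180 and 113 CPM (0.67) and Socs1 at 51.9 and 33.1 CPM (0.65). These sums mix levels with the sizes of the groups. The 17 T, NK and ILC groups, which leave out B-like cells, made up 32.3% of kept cells and 25.9% of UMIs in Trem2-/-, and 20.5% and 16.3% in Trem2+/+, and they held 81.2% and 69.8% of all Cish UMIs.

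The sizes and the levels were therefore exchanged in turn. With the Trem2+/+ levels of all 32 groups and the Trem2-/- group sizes, the Cish log2 ratio was 0.84; with the Trem2-/- levels and the Trem2+/+ sizes it was 0.05. Within classes the Cish ratio was 0.10 in CD4 T-like, -0.02 in CD8 T-like, 0.09 in ILC1-like and -0.12 in NK-like cells. Il2rb gave 0.55 from sizes and 0.14 from levels, and Il7r 0.37 and -0.02. Il21r drew on both, at 0.47 and 0.35. Socs3 was the reverse of Cish, at -0.09 from sizes and 0.33 from levels. Il2ra had opposite parts, at 0.58 from sizes and -0.40 from levels. Group sizes come from 1 pool of sorted cells per genotype and have no replicate.

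**Figure D4:**
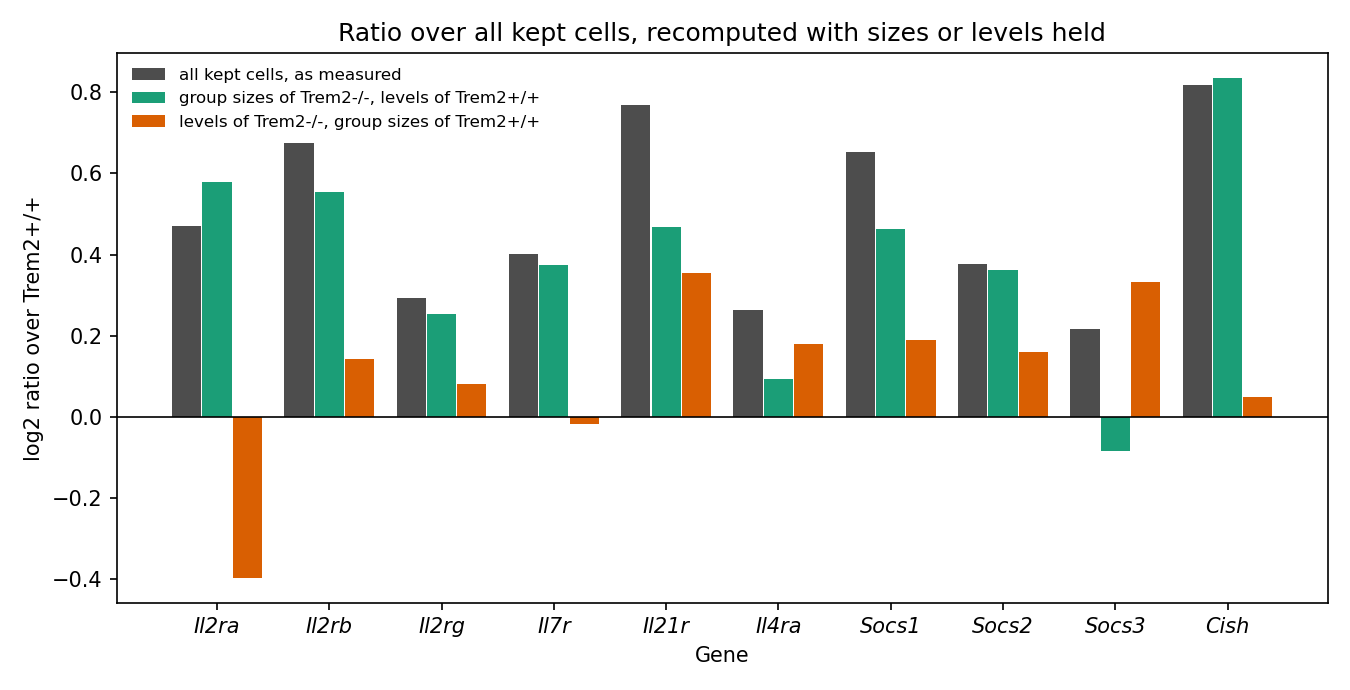
Log2 ratio over Trem2+/+ for each member over all kept cells (grey), with only the group sizes taken from Trem2-/- (green) and with only the levels taken from Trem2-/- (orange). The green bar is close to the grey bar for Cish and Il7r, and the orange bar is the larger for Socs3 and Il4ra.

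The rest of the pathway was read within the same 13 named classes. The 9 kinases and STATs gave 98 measured pairs, 8 higher and 3 lower, beside the same all-gene backgrounds of 5.79% and 5.02% that apply to each list here. Jak3, the kinase bound to the common gamma chain, stood at 103 and 54.0 CPM in CD8 T-like cells, 0.93 (0.27 to 1.62). Jak2 was lower in ILC1-like cells, at 130 and 213 CPM (-0.71, -1.16 to -0.27).

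The 8 STAT5 targets gave 53 measured pairs, 3 higher and 1 lower, against backgrounds of 5.79% and 5.02%. Among them was Pim2, a survival kinase, in NK-like cells at 224 and 124 CPM (0.85, 0.37 to 1.34). The 8 other SOCS and phosphatase genes gave 63 pairs, 3 higher and 3 lower. The 8 inducers and receptors linked to Socs3 and Socs1 gave 71 pairs, 1 higher and 6 lower. The higher pair was Il6st, the shared IL-6-family chain, in B-like cells, at 40.5 and 22.3 CPM. The lower pairs lay in CD4 T-like (2), mature DC-like (2), Kupffer-like (1) and CD8 T-like cells (1). The cytokine ligands were sparse, with 5 measured pairs, and the 4 other receptor chains gave 24 pairs, 1 higher and 1 lower.

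The 8 STAT6 targets gave 22 measured pairs, 9 higher and 4 lower, against backgrounds of 5.79% and 5.02%. Mature DC-like cells, where Il4ra was higher, had 2 measured and both higher (background 6.27%). Neutrophil-like cells, where the Il4ra ratio was -0.12, also had 2 measured and both higher (background 3.57%). Any link between Il4ra and these targets was not tested. The mature DC-like pairs were Ccl17, a chemokine that draws CCR4+ T cells, at 616 and 112 CPM (2.46, 2.10 to 2.84), and Ccl22, which uses the same receptor, at 1500 and 652 CPM (1.20, 1.04 to 1.37). Each was lower in a different dendritic class, Ccl17 at 22 and 74.6 CPM in cDC1-like and Ccl22 at 172 and 300 CPM in cDC2-like cells. These were the only lower targets of those classes, and cDC2-like cells also had 1 higher (background 5.18% higher). In macrophage-like cells Retnla stood at 40.5 and 15.2 CPM (1.41, 1.01 to 1.81) and Chil3 at 60.4 and 33.8 CPM (0.84, 0.54 to 1.14). Ccl22 was also among the markers that named mature DC-like cells, and Chil3 among those that named Ly6C-high monocyte-like cells. The part of monocyte RNA in the Chil3 ratio of macrophage-like cells was not tested.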

How the data were processed

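Whole-number UMI counts per gene and barcode were deposited by the authors as 1 matrix per library, made with Cell Ranger 5.0.1 on mm10 per the submitters' processing notes. From these counts, cells passed with 200 or more genes, a mitochondrial share of no more than 10% and no doublet call (93.9% and 94.1% of barcodes). They were clustered in 2 rounds with Scanpy 1.11.5 (Leiden resolution 1, 30 then 20 principal components) and named from fixed marker lists. Cluster L12, nearest to the γδ T markers, was left unnamed after its values were seen, since its Trdc (19.6 and 8.53 CPM) was below that of NK-like cells (34.3 and 46.3 CPM). Within each library, the UMIs of a gene in a class were added and scaled by that class's sum of UMIs to CPM. Intervals at 95% are exact Poisson for levels, exact binomial for shares and exact conditional binomial for ratios (SciPy 1.17.1). The ratio and its interval were tested on simulated Poisson counts. These hold counting error only, so the test does not cover variation between cells, mice or pools. A call needed 1.5-fold, 20 CPM and 20 UMIs. All 10 members, genes of the fixed lists, Trem2 and the 3 most similar genes per member could be named; cluster-leading genes were named after their values were seen. Members and lists were chosen with earlier results of these data known. The exchange of group sizes and levels and the contrasts between clusters were added after the values were seen. Gene positions are from GENCODE M21. Alternatives changed the cell filter, doublet scores, clustering, scaling, averaging and low-value filter.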

Additional observations from a re-analysis of the deposited data

How the results depend on the processing

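The number of pairs higher in Trem2-/- ranged from 8 to 11 and the number lower from 4 to 8 over the other settings, except that with no minimum of CPM or UMIs they were 26 and 20, of 130 pairs. Il7r in CD8 T-like cells reversed to 0.14 at Leiden resolution 2 and was -0.11 at resolution 0.5; the cause was not tested. Il21r in NK-like cells fell under 1.5-fold at resolution 2 (0.42), Il4ra and Il2rg in mature DC-like cells at resolution 0.5 (0.40 and -0.31), and Il2ra in ILC1-like cells with a mean over cells (-0.41). Also under 1.5-fold were Socs2 in ILC1-like cells in 4 of 8 settings (to 0.12), Il7r in neutrophil-like cells in 3 of 10 (to -0.41), Il2rg in mature DC-like cells in 3 of 9, Il21r in ILC1-like cells in 2 of 8 (to 0.56), and, with a mean over cells, Il2ra in mature DC-like cells (-0.15) and Socs3 in B-like cells (0.43). Il2rb in CD8 T-like cells was 0.52 when scaled by the median ratio, and Socs3 in endothelial-like cells was 0.50 with clusters weighted equally. The calls for Il21r in macrophage-like cells, Socs2 in NK-like cells and Socs3 in CD8 T-like and ILC1-like cells kept 1.5-fold in every setting that gave a value. Classes of 23 to 34 cells and genes with few UMIs are limited by depth. No paired analysis was possible because each group has 1 library.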

Other observations

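A class too small to compare between the libraries also held a high level of 1 receptor chain. The pDC-like cells, 41 in Trem2-/- and 45 in Trem2+/+, had Il7r at 234 CPM (175 to 306) and 110 CPM (70.2 to 163), above the conventional dendritic classes cDC1-like and cDC2-like in both libraries.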
